A study of Mus musculus with 6 samples.

Results

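Nuclear receptor coregulators were followed in C3H10T1/2 cells, a mouse mesenchymal cell line that can form fat, muscle, bone and cartilage, given 1 µM dexamethasone or its solvent DMSO (vehicle) for 90 minutes. Both groups were grown in DMEM with 10% FBS, and each had 3 replicates, which the series description calls biological. RNA of each culture was hybridised in Cy3 on a two-colour array against a pool of C3H10T1/2 RNA in Cy5. By the labels this pool mixed RNA from DMSO, dexamethasone and myostatin cultures, and the series description mentions no myostatin.

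The genes described are a list of 8: Nrip1, Ncoa1, Ncoa2, Ncoa3, Ncoa4, Ncor1, Ppargc1a and Ppargc1b. Every probe whose only gene symbol was one of these was taken, which gave 11 of the 29456 single-symbol probes and 6 of 19640 genes. Nrip1, Ncoa3 and Ppargc1a had 2 probes each, Ncoa2 had 3, and Ncoa1 and Ppargc1b had 1 each. Ncoa4 was listed on 4 probes together with a second symbol, so no value was taken for it, and the supplied annotation listed 0 probes for Ncor1. The list was selected on the measured dexamethasone against vehicle log ratios of these arrays. The members' differences are therefore given as a description, with their spread and without a test.

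Steroid and other nuclear receptors change transcription through coregulators that bind the receptor and bring chromatin enzymes to its target genes. The p160 coactivators SRC-1 (encoded by Ncoa1), TIF2 or GRIP1 (Ncoa2) and SRC-3 (Ncoa3) bind agonist-loaded receptors through short LxxLL motifs and recruit acetyltransferases and methyltransferases. PGC-1alpha (Ppargc1a) and PGC-1beta (Ppargc1b) coactivate receptors at genes of mitochondrial and fatty acid metabolism, while RIP140 (Nrip1) also binds agonist-loaded receptors but mostly represses, in fat and muscle at many genes that PGC-1 activates.

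Each value is taken as a log2 ratio of the culture over the pool. It compares arrays for a given probe and gives no level, so neither the abundance of these transcripts nor the presence of cell type markers could be read from it. The columns were not centred: the difference between dexamethasone and vehicle had a median of 0.32 over 27046 genes and unnamed probes, and of 0.02 once the array medians were set to 0. Arrays vehicle 1, vehicle 2 and dexamethasone 1 had 1.86% to 3.79% of values that match a whole-number ratio. This is, at 3 decimals, the log2 of one whole number up to 10 over another. Vehicle 3, dexamethasone 2 and dexamethasone 3 had 7.73% to 12.7% of such values. These sets of 3 arrays are called array sets here. They were told apart from the values and are named in no label. Very dim spots can give whole-number ratios, but spot intensities were not used here. The share that would match by coincidence was not worked out. The labels do not say which channel is the numerator. The direction is therefore not settled. The lowest Spearman correlation between arrays was -0.33 across all probes (vehicle 2 and dexamethasone 3). The ratio is read as culture over pool because Dusp1 and Fkbp5, textbook targets of the glucocorticoid receptor, are then higher with dexamethasone (by 4.26 and 3.93 on the log2 scale). Were the pool the numerator, all directions given here would be the opposite.

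Of the 6 measured members, Nrip1 had the widest gap between the groups. Its first probe, mMC021490, read -0.75, -0.96 and -1.03 on vehicle arrays 1, 2 and 3, and 0.96, 0.53 and 1.04 on dexamethasone arrays 1, 2 and 3. Its second probe, mMC025606, read -1.06, -0.99 and -0.92 with vehicle and 0.60, 1.36 and 0.27 with dexamethasone. On both probes every vehicle value lay below every dexamethasone value, and the gap between the nearest values of the groups exceeded 1 on the log2 scale. Averaged over its probes, Nrip1 had a vehicle mean of -0.95 ± 0.04 and a dexamethasone mean of 0.79 ± 0.14 (SD, n = 3 each). The difference was 1.74 ± 0.17 (SE), a 3.35-fold higher level with dexamethasone, or 3.35-fold lower with the sign of the ratio turned.

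The Nrip1 probes gave nearly the same difference, 1.75 and 1.73, which are 3.37-fold and 3.32-fold. On a given array they were 0.33 apart in the median and 0.83 apart at most, on dexamethasone 2. The difference was also nearly the same in both array sets, 1.72 within vehicle 1, vehicle 2 and dexamethasone 1 and 1.77 within vehicle 3, dexamethasone 2 and dexamethasone 3. After median centring it was 1.43. Relative to the median of all genes and unnamed probes it was 1.42. Size alone did not set Nrip1 apart, since 10.8% of the 27046 had a larger difference. The pooled SD over the arrays of a group was 0.22 for mMC021490 and 0.40 for mMC025606, and 0.10 for their average, since the probes deviated in opposite directions on the dexamethasone arrays. Over all genes and unnamed probes this SD had a median of 0.78 and a lower quartile of 0.26, which lies between the values of the 2 Nrip1 probes.

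**Figure D1:**
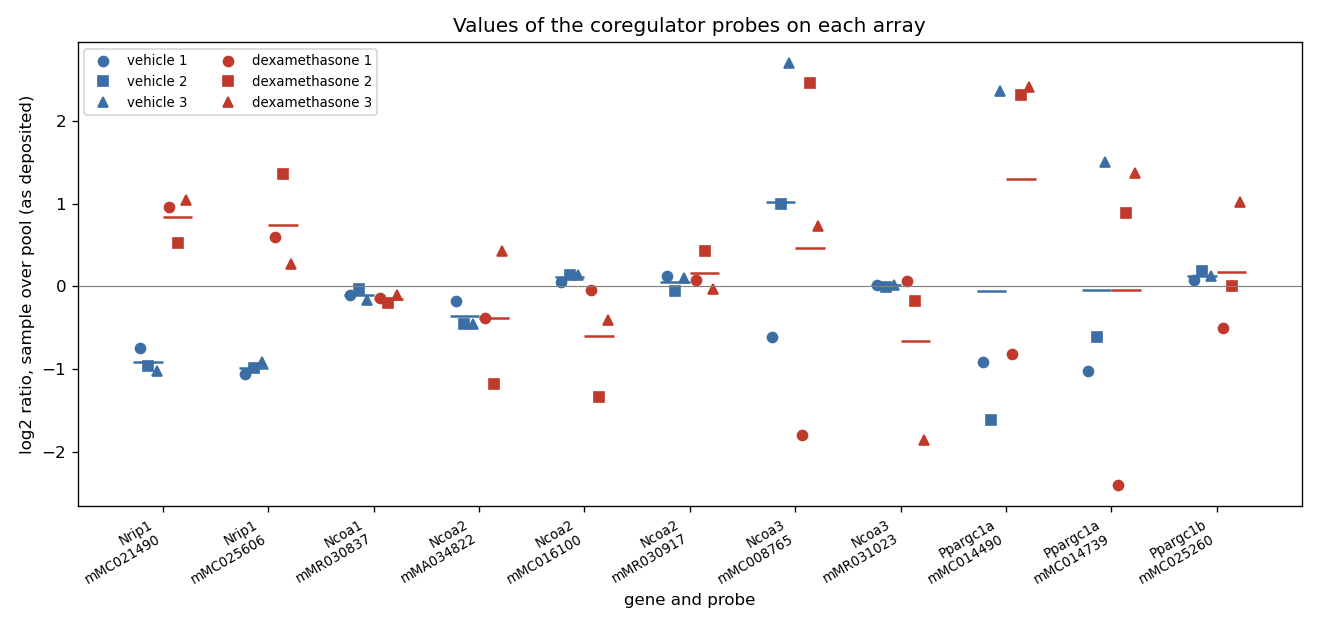
Deposited log2 ratio (vertical axis) of each of the 11 probes of the 6 measured coregulator genes (horizontal axis) on each array. Blue marks are vehicle, red marks dexamethasone, marker shapes the replicate number and horizontal bars the group means. Both Nrip1 probes have all vehicle values below -0.7 and all dexamethasone values above 0.2, the Ncoa1 values lie close to 0, and the Ppargc1a values of vehicle 3, dexamethasone 2 and dexamethasone 3 lie above those of the other arrays.

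The promoter of Nrip1 is shown because this gene differed most, beside that of Ncoa1, whose values hardly moved. The windows run from 250 bases before to 50 bases after an annotated start (RefSeq, build GRCm38.p6), are written 5′ to 3′ on the gene's strand, and have in capitals the glucocorticoid receptor hexamer AGAACA or its reverse complement TGTTCT. The table held 2 windows for Nrip1, 1 each for Ncoa1 and Ppargc1a, 3 for Ncoa4 and 2 for Ncor1.
Nrip1, chr16:76373778-76374077, minus strand: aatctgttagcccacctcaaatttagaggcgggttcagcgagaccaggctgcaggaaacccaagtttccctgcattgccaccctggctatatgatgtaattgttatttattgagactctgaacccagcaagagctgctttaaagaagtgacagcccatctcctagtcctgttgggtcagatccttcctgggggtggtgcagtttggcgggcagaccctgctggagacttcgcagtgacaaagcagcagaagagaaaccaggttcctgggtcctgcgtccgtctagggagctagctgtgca
Nrip1, chr16:76373000-76373299, minus strand: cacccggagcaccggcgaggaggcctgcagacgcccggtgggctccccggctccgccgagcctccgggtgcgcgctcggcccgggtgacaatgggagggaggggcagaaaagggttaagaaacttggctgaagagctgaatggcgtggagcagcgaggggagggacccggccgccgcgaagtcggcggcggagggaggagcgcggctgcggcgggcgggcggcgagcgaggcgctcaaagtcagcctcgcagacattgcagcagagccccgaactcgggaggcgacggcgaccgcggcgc
Ncoa1, chr12:4477133-4477432, minus strand: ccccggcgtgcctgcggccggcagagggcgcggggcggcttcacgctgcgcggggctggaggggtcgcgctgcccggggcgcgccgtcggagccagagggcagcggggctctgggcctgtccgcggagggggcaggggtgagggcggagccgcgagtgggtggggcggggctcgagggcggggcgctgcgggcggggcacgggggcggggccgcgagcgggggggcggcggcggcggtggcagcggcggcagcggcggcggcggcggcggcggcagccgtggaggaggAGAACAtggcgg

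Neither Nrip1 window held the hexamer, nor did the Ppargc1a window. The Ncoa1 window held 1, which begins 38 bases after the start. Of the unmeasured members, the Ncoa4 windows held 1, 1 and 2 (the last 2 windows overlap and share 1 match), and the Ncor1 windows 2 and 0. Of all 32817 windows of this length, 19.0% held it on either strand. The full receptor element, AGAACA and TGTTCT parted by 3 bases (each match of which also counts as hexamers), was in 3 of all windows and in 0 of those of Nrip1, Ncoa1 and Ppargc1a. The windows differ in composition. GC bases made up 52.7% of the upstream Nrip1 window and 73.3% of the downstream one, against 84.7% for Ncoa1, 48.7% for Ppargc1a and a median of 52.7% over all windows. A missing match says only that these letters are not in the window.

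The p160 coactivators showed no comparable separation. Ncoa1 had 1 probe, mMR030837, which read -0.11, -0.03 and -0.17 with vehicle and -0.14, -0.20 and -0.11 with dexamethasone. The groups overlapped, and all 6 values lay within 0.17 of each other. The means were -0.10 ± 0.07 and -0.15 ± 0.04 (SD, n = 3 each), a difference of -0.05 ± 0.16 (SE). That SE is larger than the spread of these values because limma draws each gene's variance toward that of the other genes. After median centring the difference was -0.36.

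The 3 probes of Ncoa2 disagreed. Probe mMA034822 read -0.18, -0.46 and -0.45 with vehicle and -0.38, -1.18 and 0.43 with dexamethasone, so the dexamethasone values lay on both sides of the vehicle values. Probe mMC016100 read 0.05, 0.14 and 0.14 with vehicle and -0.05, -1.34 and -0.41 with dexamethasone. Here all dexamethasone values were below all vehicle values, but the nearest values of the groups were 0.10 apart. Probe mMR030917 read 0.12, -0.06 and 0.11 with vehicle and 0.08, 0.43 and -0.03 with dexamethasone, which overlapped. The probe differences were -0.01, -0.71 and 0.10, and the mean over the probes was -0.07 ± 0.06 with vehicle and -0.27 ± 0.37 with dexamethasone (SD, n = 3 each). Without dexamethasone replicate 2 the averaged difference was 0.01, against -0.21 with all arrays and -0.34 without dexamethasone replicate 3. Across the 6 arrays mMR030917 ran opposite to the other probes, with Pearson's r of -0.79 against each, which rests mainly on dexamethasone 2, where mMR030917 was 1.78 above mMC016100. The annotation gives mMA034822 and mMR030917 the same RefSeq transcript, and mMC016100 a cDNA and no RefSeq transcript.

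Ncoa3 also had probes that did not track each other (r = -0.07 over 6 arrays). Probe mMC008765 ranged from -0.61 to 2.70 over the vehicle arrays and from -1.80 to 2.46 over the dexamethasone arrays. Probe mMR031023 stayed within 0.02 of 0 on the vehicle arrays and read 0.07, -0.18 and -1.86 with dexamethasone. Its dexamethasone mean was therefore set by replicate 3. The 2 probes were up to 2.68 apart on the same array, vehicle 3. The averaged difference was -0.62 ± 0.71 (SE), with overlapping groups, and within the array sets it was -0.97 and -1.07. Probe mMC008765 differed by -1.99 within vehicle 1, vehicle 2 and dexamethasone 1 and by -1.10 within the other set. For mMR031023 these values were 0.06 and -1.04. Without vehicle replicate 3 the averaged difference was -0.20, and without dexamethasone replicates 1 and 3 in turn -0.23 and -0.38. Without vehicle replicate 1 it was -1.02, and without dexamethasone replicate 2 it was -1.23.

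Ppargc1a separated the array sets and not the treatments. Probe mMC014490 read -0.92, -1.61 and 2.36 with vehicle and -0.82, 2.32 and 2.42 with dexamethasone. Probe mMC014739 read -1.03, -0.61 and 1.51 with vehicle and -2.40, 0.89 and 1.38 with dexamethasone. On both probes the 3 highest arrays were vehicle 3, dexamethasone 2 and dexamethasone 3, and the mean of the probes was 1.81 ± 0.18 on those and -1.23 ± 0.33 on the others (SD, n = 3 arrays each). That gap of 3.05 compares with a median of 0.43 over the 22880 genes and unnamed probes with values on all arrays, of which 6.16% had a larger one. Averaged over the probes, the dexamethasone minus vehicle difference was 0.68 ± 1.34 (SE). Within the array sets this average was -0.57 and -0.18, so its sign turned. The probes disagreed there: mMC014739 differed by -1.58 and -0.37, and mMC014490 by 0.45 and 0.006. Without vehicle replicate 3 the averaged difference was 1.68, and without dexamethasone replicate 1 it was 1.80. It ran from 0.05 to 0.22 without any 1 of the other arrays. Both probes had values equal to ratios of whole numbers up to 20, on 2 of 6 arrays each, where such values made up 7.19% to 27.4% of all values on an array. Whether low signal in an array set plays a part in this gene's values was not tested.

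Ppargc1b had 1 probe, mMC025260, with 0.08, 0.19 and 0.12 on the vehicle arrays. The dexamethasone arrays read -0.51, 0.00 and 1.02, on both sides of the vehicle values. The difference was 0.04 ± 0.43 (SE), and -0.26 after median centring. Without dexamethasone replicate 1 it was 0.38, without dexamethasone replicate 2 it was 0.13 and without dexamethasone replicate 3 it was -0.38. It was -0.64 within vehicle 1, vehicle 2 and dexamethasone 1 and 0.39 within the other set. The value of 0.00 on dexamethasone 2 is a whole-number ratio, 1 to 1.

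**Figure D2:**
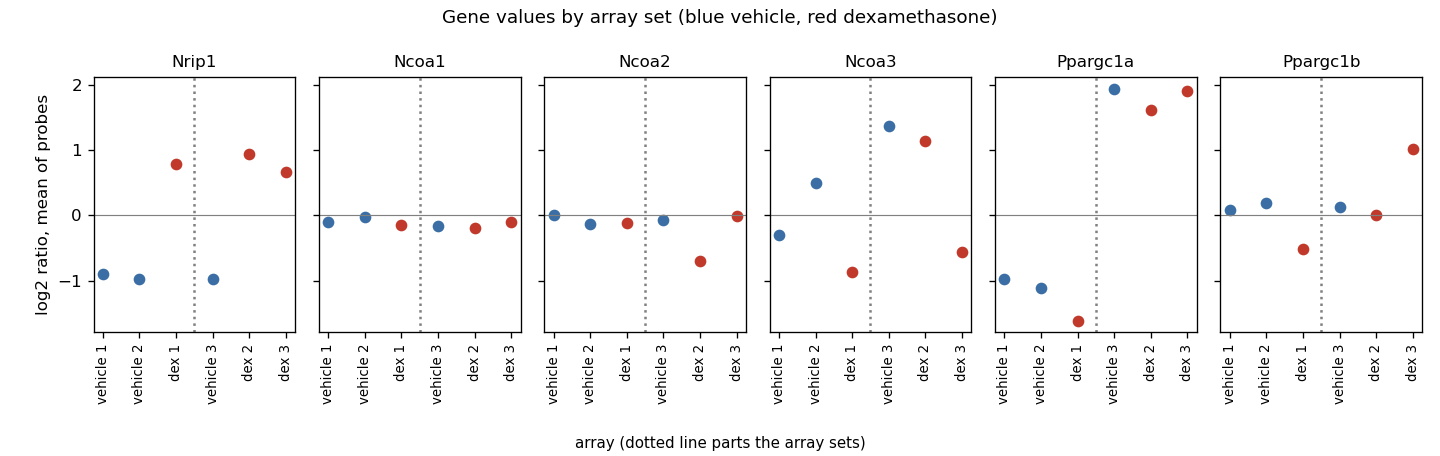
Log2 ratio averaged over the probes of each gene (vertical axis) on each array, with the arrays ordered by array set and parted by a dotted line. Blue points are vehicle and red points dexamethasone. Nrip1 follows the treatment in both sets, and Ppargc1a is near -1.2 in the left set and near 1.8 in the right set whatever the treatment.

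Ordered by difference, the genes ran from Nrip1 (1.74) through Ppargc1a (0.68), Ppargc1b (0.04), Ncoa1 (-0.05) and Ncoa2 (-0.21) to Ncoa3 (-0.62). From Ppargc1a down, no neighbours in this order differed by more than 1 SE of the more variable gene. The median of the 6 was -0.002, against 0.32 for all genes and unnamed probes. The low-signal filter drops probes with a missing value, a whole-number ratio up to 10 or a value beyond 10 on any array. With it the medians were -0.047 for the 5 members kept and 0.166 for all genes and unnamed probes kept. Groups did not overlap for 1 of the 6 genes, Nrip1, and for 3 of the 11 probes, both of Nrip1 and mMC016100 of Ncoa2. Among all genes and unnamed probes with values on every array the groups did not overlap for 17.2%, with dexamethasone above vehicle for 9.95% and below for 7.29%. Among probes the share without overlap was 18.8%. Since the list was selected on this contrast, nothing is read from its counts.

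**Figure D3:**
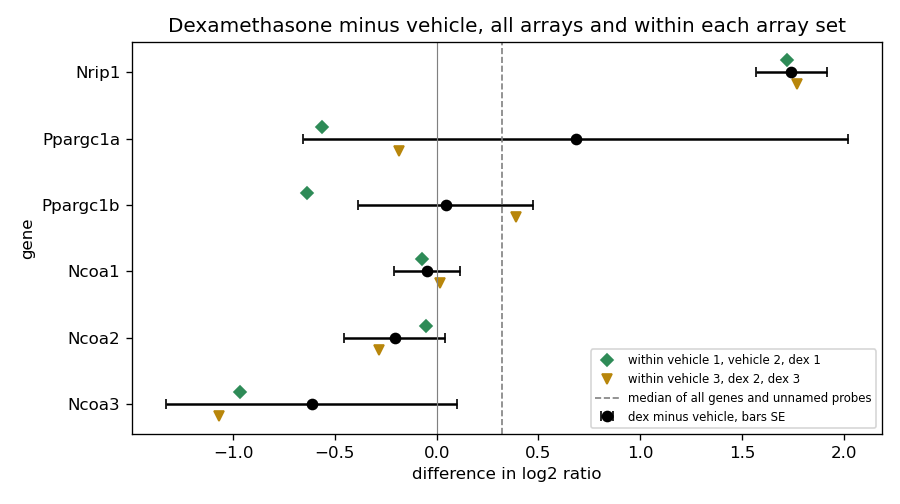
Dexamethasone minus vehicle difference in log2 ratio (horizontal axis) for the 6 measured genes (vertical axis). Black points are the difference over all arrays with its SE, green diamonds and gold triangles the difference within each array set, and the dashed line is the median of all genes and unnamed probes, 0.32. The Nrip1 points, 1.72 to 1.77, lie together, and for Ppargc1a and Ppargc1b the sets give values 0.38 and 1.03 apart.

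The genes nearest to each member were found by the root mean square distance of their log2 ratios over the 6 arrays, among 16504 other genes with values on all arrays. Nearest to Nrip1 were Fabp4 (0.11), Foxred2 (0.14) and Ctla2a (0.14), with dexamethasone minus vehicle differences of 1.91, 1.66 and 1.62. Genes picked for close values on every array have close differences by construction, so nothing further is read from these. Within a distance of 0.5 there were 107 genes for Nrip1, 98 for Ppargc1a and 22 for Ncoa3. The other members had more, with 7450 genes for Ncoa1, 5849 for Ncoa2 and 3461 for Ppargc1b. The nearest were Nktr, Psmc4 and Scaf11 for Ncoa1, Cops5, Arpc5 and Ago1 for Ncoa2, and 1810062G17Rik, Tax1bp3 and Olfr1212 for Ppargc1b. For Ncoa3 they were Egfros, Tpcn2 and E130307A14Rik, and for Ppargc1a Vmn1r233, Aqp4 and Prelid2.

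Other coregulators were taken from lists made by role, and limma's test over all 27046 genes and unnamed probes was applied to them. It called 0 of 55 measured genes of 58 listed at a Benjamini-Hochberg adjusted p under 0.05, where it called 0 of all (0% of the 27046). Dusp1 and Fkbp5 also went uncalled (limma adjusted p 0.0556 and 0.141), so 0 calls do not show that a gene is unchanged. With the low-signal filter their limma adjusted p was 0.00744 and 0.0441. At an unadjusted p under 0.05 there were 3 higher and 2 lower of the 55, against 4.43% higher and 0.995% lower among all. The 5 became 17 of 55 without dexamethasone replicate 1, when the share of all genes and unnamed probes rose to 29.2%. They became 2 without any 1 vehicle array (share of all, 2.63% to 6.15%) and 3 without dexamethasone replicate 2 or 3 (4.63% and 4.30%). Their median difference was 0.03 (-0.28 after median centring), against 0.32 for all, and 30 of 55 lay above 0. The 0.32 itself depended on the processing. With the low-signal filter the medians were 0.019 for the 50 coregulators kept and 0.166 for all 17152 genes and unnamed probes kept. With the array set as a block they were -0.005 for the 55 and 0.104 for all. The groups did not overlap for 16 of the 54 with values on all arrays, 9 with dexamethasone above and 7 below, where the share over all was 17.2%.

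Beside the NCOA members, the family genes Pprc1, Ncoa5, Ncoa6 and Ncoa7 had differences from -0.49 to 0.43. Pprc1, which encodes the PGC-1 related coactivator, stood at 0.09 ± 0.12 with vehicle and 0.52 ± 0.35 with dexamethasone (SD, n = 3 each). Ncoa7 was at 0.09 ± 0.04 and -0.40 ± 0.47, with dexamethasone below vehicle on every array, and Ncoa6 differed by -0.17 ± 0.29 (SE).

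Of the 8 acetyltransferases and arginine methyltransferases that p160 proteins recruit, Ep300, which encodes the acetyltransferase p300, had the smallest p. It read -0.44, -0.46 and -0.49 with vehicle and 0.39, 0.23 and 0.36 with dexamethasone, with no overlap. The difference was 0.79 ± 0.16 (SE), with a limma adjusted p of 0.453. Its 2 probes differed by 1.46 and 0.13, so most of the averaged difference came from 1 of them. Its paralogue Crebbp was at -0.47 ± 0.05 and -0.17 ± 0.10 (SD, n = 3 each), with all 3 probes above 0 (0.18 to 0.54), though its difference was -0.002 after median centring. Prmt2 differed by -0.37 ± 0.20 (SE).

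Mediator, the complex that links receptors and coactivators to RNA polymerase II, had the largest single difference among the coregulators. Med17 read -2.10, -1.14 and -0.61 with vehicle and 1.44, 3.58 and 2.91 with dexamethasone on its 1 probe. The groups did not overlap, and the difference was 3.93 ± 0.70 (SE) with a limma adjusted p of 0.386. The other 11 subunits differed by less, with Med23 at -0.70 ± 0.27 and Med12 at 0.44 ± 0.21 (SE), and the list's median was -0.04. The 8 SWI/SNF remodelling subunits had a median of 0.16, which turned to -0.15 after median centring. Smarcd3 differed by 0.53 ± 0.24 (SE) and by 0.22 after centring, while Smarcb1 (0.27) and Smarca2 (0.31) were at -0.04 and -0.0003 after it.

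On the repressive side, 9 of 10 genes of the NCoR, SMRT and Sin3 complexes were measured, with a median of -0.13. Tbl1xr1, which encodes a subunit that exchanges corepressors for coactivators, was at -0.05 ± 0.24 with vehicle and 0.81 ± 0.49 with dexamethasone (SD, n = 3 each). Its 5 probes ranged from 0.02 to 1.88. The deacetylase genes Hdac1 and Hdac2 differed by -0.81 ± 0.40 and -0.19 ± 0.18 (SE). Of 14 other corepressor genes, Nrbf2 read 0.19, 0.38 and 0.31 with vehicle and -0.15, -0.48 and -0.29 with dexamethasone, a difference of -0.60 ± 0.18 (SE; limma adjusted p = 0.732). Hdac7 differed by 0.46 ± 0.20 and Ctbp2 by 0.57 ± 0.34 (SE), and the 3 probes of Ctbp2 ranged from -0.16 to 1.84. No one of these genes passed over all genes.

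**Figure D4:**
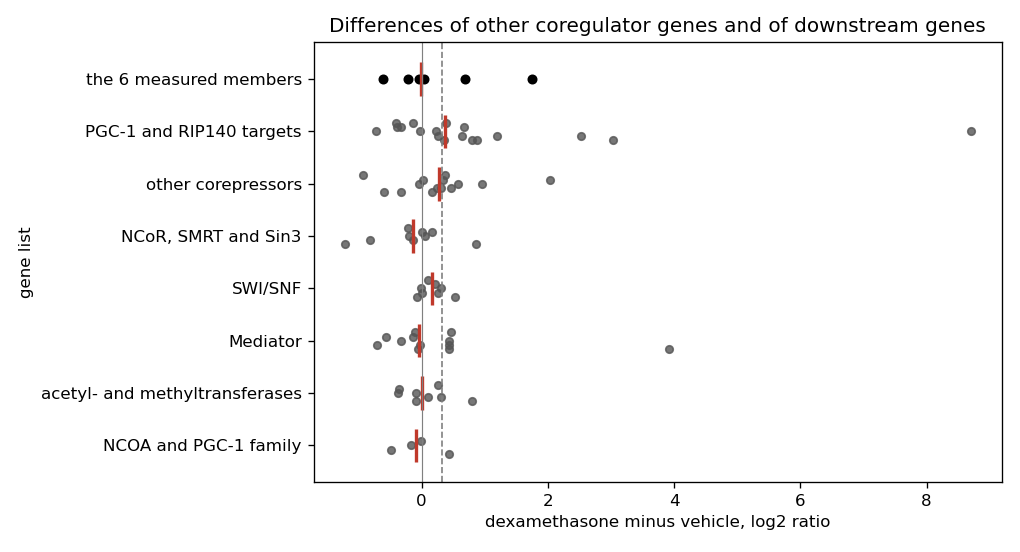
Dexamethasone minus vehicle difference in log2 ratio (horizontal axis) for each gene of the coregulator lists, of the downstream list and of the 6 measured members (vertical axis). Each point is a gene, red bars are list medians and the dashed line is the median of all genes and unnamed probes. The Mediator point at 3.93 is Med17 and the downstream point at 8.70 is Tfb1m; the median of the 55 other coregulators is 0.03.

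Genes that PGC-1 proteins are known to activate or RIP140 to repress in fat and muscle were read as a downstream list. Of 18 measured, 0 passed over all genes and 1 was higher at an unadjusted p under 0.05, against 4.43% of all. The median difference was 0.37, near the 0.32 of all genes and unnamed probes, and it was 0.07 after median centring. The higher gene was Pdk4, the kinase that holds back pyruvate oxidation and a known glucocorticoid target, at -0.38 ± 0.06 with vehicle and 0.43 ± 0.30 with dexamethasone (SD, n = 3 each; limma adjusted p = 0.708). Ucp1, the uncoupling protein of brown fat, read -1.43, -0.31 and 2.29 with vehicle and 3.21, 2.00 and 2.94 with dexamethasone. Those groups overlapped. The only probes of Ucp1, Tfb1m and Slc2a4 were all left out by the low-signal filter. Tfb1m, a mitochondrial rRNA methyltransferase gene named after its values were seen, had the largest difference of the list, 8.70 ± 6.71 (SE), with 2.62 on dexamethasone 2, 23.9 on dexamethasone 3 and values within 0.22 of 0 on the other arrays. The insulin-responsive glucose transporter gene Slc2a4 differed by -0.73 ± 0.35 (SE).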

How the data were processed

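The deposited values are per-array log ratios of 2 channels, taken as log2 from the values themselves, since they are signed and often equal the log2 of small whole-number ratios. Some exceed 100 in size on 4 arrays, which no ratio of intensities gives. The authors used limma, per the submitters' processing notes. Its version is not given in the sources used here, nor is how background, normalization or dim spots were handled. The number of arrays limits the precision.

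Gene names came from the supplied platform annotation (29456 of 38467 probes with 1 symbol, 760 with several, 8251 unlisted). Identifiers of 28735 probes were found in RefSeq (GRCm38.p6), which changed 0 symbols. No build was named for the array, so probes have no positions. Probes of a gene were averaged, and 2 values per group were needed.

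limma 3.58.1 in R 4.3.3 (lmFit, eBayes, two-sided, Benjamini-Hochberg at 0.05) was fitted over all features on the uncentred values. Fold is 2 to the power of the difference, and SE is the moderated standard error. An exact permutation test of 3 against 3 arrays cannot go below 0.1, so none was run.

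Members and lists were chosen with earlier results of these data known. The text names all measured members, up to 3 genes of smallest p per list, and the 3 nearest genes per member. On simulated data with 50 genes each changed by 1, 2, 3 and 4 among 27046, limma recovered 0%, 10%, 32% and 38%, with 5 false calls. The simulation drew independent normal noise for each array at each gene's observed spread. The array sets were not simulated, so these shares need not hold for the deposited values. A planned count of receptor-binding motifs in proteins was not run, as protein sequences were not used here.

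Marker genes set down for cell types gave 0 limma calls of 17 measured (2 at an unadjusted p under 0.05, against 5.43% of all features). The median difference was -0.47 for 8 mesenchymal, 0.95 for 3 blood, 1.56 for 3 endothelial and 1.25 for 3 epithelial markers. Over all genes and unnamed probes it was 0.32. After median centring the marker medians were -0.78, 0.65, 1.25 and 0.94 in the same order. The low-signal filter kept 7 of the mesenchymal, 0 of the blood, 1 of the endothelial and 2 of the epithelial markers. The third orientation gene, Tsc22d3, differed by 1.95. It was not called in the planned fit (limma adjusted p 0.369) or with the low-signal filter (0.197). Alternatives were median centring, quantile normalization, a low-signal filter, leaving out values beyond 10, blocks, array weights, complete values only, the median of probes, and leaving out each array.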

Additional observations from a re-analysis of the deposited data

How the results depend on the processing

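The Nrip1 difference stayed between 1.43 (median centring) and 1.81 (without dexamethasone replicate 3) over all alternatives run, blocks and within-set values included. The Ncoa3 difference stayed below 0 (-1.23 to -0.09), though its probe mMR031023 differed by 0.06 within vehicle 1, vehicle 2 and dexamethasone 1. Ppargc1a ran from -0.57 to 1.80 and Ppargc1b from -0.64 to 0.39. Ncoa1 ran from -0.36 to 0.02 and Ncoa2 from -0.71 to 0.10. The cause of these changes was not tested.

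The count over all genes and unnamed probes was 0 in the planned fit (1468 at an unadjusted p under 0.05), 29 of 17152 with the low-signal filter and 5 of 22880 when values on all arrays were needed. It was 0 under the other alternatives, and without 1 array it was 0 each time. The other coregulators had 0 calls under every alternative run, with 17 of 55 at an unadjusted p under 0.05 without dexamethasone replicate 1 (29.2% of all features), 10 with array weights (12.1%) and 5 in the planned fit (5.43%). Their median difference of 0.03 became -0.28 with median centring and -0.24 with quantile normalization. It ranged from 0.019 (without vehicle replicate 1) to 0.152 (without dexamethasone replicate 1) when 1 array was left out. The median of the 6 members, -0.002, was -0.40 after quantile normalization and -0.32 within vehicle 1, vehicle 2 and dexamethasone 1, and without 1 array it ran from -0.204 to 0.166.

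With the replicate number as a block, limma called 0 and 1329 had an unadjusted p under 0.05. Deviations of same-numbered arrays correlated at 0.30, -0.10 and 0.24 over 30604 probes. Those of differently numbered arrays ran from -0.38 (vehicle 3 and dexamethasone 1) to 0.21 (vehicle 2 and dexamethasone 1). Vehicle 2 and dexamethasone 2 lie in different array sets, so these correlations cannot decide whether the numbers mark pairs. The planned fit did not use the numbers as pairs. The low-signal filter left out the Ppargc1b probe and 1 probe each of Ppargc1a and Ncoa3, and the Ppargc1a difference was then 0.001.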
